A study of Mus musculus with 4 samples.

Results

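Genes of DNA replication and of mitosis were followed across every cell cluster that was defined in a single-cell RNA sequencing study of group 2 innate lymphoid cells (ILC2s), a class of tissue lymphocytes that lack antigen receptors and make type 2 cytokines. The 50 members were taken by gene symbol from a list of known cell cycle genes, and they were described as 20 replication genes, 25 mitosis genes and 5 genes of tubulin and chromatin (*Stmn1*, *Hmgb2*, *Tubb5*, *Tuba1b* and *H2afz*). All 50 had at least 1 row in the deposited marker tables, which together held rows for 3488 genes. ILC2s were sorted from the livers and the lungs of wild-type BALB/c mice, 8 weeks old, after daily intraperitoneal injections for 5 days of PBS or of 0.5 µg recombinant IL-33 (rIL-33), the cytokine that binds the ST2 receptor of these cells. The 4 groups were the livers (PBS liver, rIL-33 liver) and the lungs (PBS lung, rIL-33 lung) of each treatment, with 1 library each, and each library was made from the pooled tissue of several mice. The sort kept lineage-negative cells that carried CD127, Thy1 and ST2, and no group carried an engineered allele.

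The deposited tables pool the 4 libraries and hold no value per library, so treatment and organ could not be compared for any member, no spread between replicates could be given and no test was made. The cell type table set each of 21 named types against all other cells, and the ILC2 subcluster table set each of 10 subclusters, numbered from 0, against all other ILC2s. A row is 1 gene in 1 cluster where the gene had a higher average level, and it gives the percentage of positive cells (those with any value above 0) within the cluster and among all other cells. These shares were the values used here. The tables give neither the depth nor the number of cells, and because the cells had been clustered on their expression, a cluster against the rest is a description. In every row of the subcluster table at least 25% of the cells inside or outside the cluster had the gene (25.2% in the cell type table), so a gene with no row may be lower, unchanged, rarer than this, or untested. Despite the sort, the type named ILC2 was 43.2% and ILC2_2 1.78% of the cells by sizes solved from the shares, and 11 of 13 ILC2 marker genes had a row for the ILC2 type. A value above 0 in the cell type table may not mean a detected transcript. *Cd3e*, of the T cell receptor complex, was above 0 in 96.2% of CD4 cells and in 83.1% of all other cells of that table, although CD3e-positive cells were excluded by the sort, whereas in the subcluster table it was above 0 in 32% of subcluster 5 and in 4.7% of the other ILC2s.

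Before a cell divides it copies its DNA in S phase, when a ring-shaped helicase opens the double helix, a sliding clamp holds the polymerases on the strand, and enzymes of nucleotide metabolism supply the building blocks. In mitosis, condensin compacts the chromosomes, the spindle attaches to the kinetochores, and the kinase Cdk1 with its cyclins drives the process until the cyclins are destroyed. Many replication genes are transcribed under E2F factors, whereas many mitosis genes carry a CCAAT box and a cell cycle homology region (CHR) near the start of transcription and are switched on later. ILC2s divide in response to IL-33 in tissue.

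The promoters of the members were searched for these elements, since the replication and mitosis genes parted in the marker tables. Promoter windows of 300 bases, from 250 before to 50 after the start, came from RefSeq (GRCm38.p6), and 42 of the 50 members matched. Promoters were counted by gene, and a gene counted if any of its windows held the letters. The replication genes *Lig1*, *Mcm7*, *Fen1* and *Uhrf1* had more than 1 window, whereas each mitosis gene had 1. The CHR was searched as TTTGAA or TTCGAA, the CCAAT box as CCAAT, and the E2F element as TTTCGCGC, TTTGGCGC, TTTCCCGC, TTTGCCGC, TTCCCGCC or TTGGCGCC, on both strands, and E2F matches could overlap each other. The CHR letters were found in 17 of 21 mitosis promoters (81.0%) and in 3 of 17 replication promoters (17.6%), against 21.7% of all 27025 genes with a promoter. The E2F letters were found in 9 of 17 replication promoters (52.9%) and in 2 of 21 mitosis promoters (9.52%), against 5.11% of all genes. CCAAT was in 19 of 21 mitosis promoters (90.5%), in 11 of 17 replication promoters (64.7%) and in 41.1% of all. Of the 4 tubulin and chromatin promoters, 1 held the CHR letters, 3 held CCAAT and 0 held the E2F letters. With only the bases before the start, the CHR percentage of mitosis genes was 42.9% (19.6% of all genes) and the E2F percentage of replication genes 35.3% (4.27% of all). A match describes the sequence and does not show a bound site.

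The 120 bases before the start are shown for *Mcm6* (chr1:128359706-128359825, minus strand) and *Rrm1* (chr7:102441575-102441694, plus strand) as replication genes. *Top2a* (chr11:99024190-99024309, minus strand) and *Cdk1* (chr10:69352913-69353032, minus strand) are mitosis genes with a row for ILC2 subcluster 4. *Cdc20* (chr4:118437344-118437463, minus strand), *Ube2c* (chr2:164769809-164769928, plus strand) and *Kif11* (chr19:37376262-37376381, plus strand) are mitosis genes without one. They were chosen after the matches were known, to show both kinds of promoter. Each is written 5′ to 3′ on the strand of the gene, and capitals mark the E2F, CCAAT (or ATTGG) and CHR (or TTCAAA) letters.
Mcm6: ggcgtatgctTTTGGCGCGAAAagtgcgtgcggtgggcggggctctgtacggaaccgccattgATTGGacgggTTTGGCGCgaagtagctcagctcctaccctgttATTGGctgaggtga
Rrm1: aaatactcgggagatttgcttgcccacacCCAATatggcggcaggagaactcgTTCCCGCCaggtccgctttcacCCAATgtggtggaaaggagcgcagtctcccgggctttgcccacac
Top2a: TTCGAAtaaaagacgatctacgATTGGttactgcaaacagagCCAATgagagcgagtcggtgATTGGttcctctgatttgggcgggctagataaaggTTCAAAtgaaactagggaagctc
Cdk1: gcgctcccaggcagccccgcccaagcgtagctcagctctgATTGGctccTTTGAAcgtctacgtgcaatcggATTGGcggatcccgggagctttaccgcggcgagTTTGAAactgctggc
Cdc20: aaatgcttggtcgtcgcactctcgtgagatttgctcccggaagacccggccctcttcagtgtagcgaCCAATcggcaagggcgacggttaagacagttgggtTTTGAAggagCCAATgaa
Ube2c: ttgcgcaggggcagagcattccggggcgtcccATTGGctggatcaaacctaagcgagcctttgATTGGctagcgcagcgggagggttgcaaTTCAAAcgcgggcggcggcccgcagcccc
Kif11: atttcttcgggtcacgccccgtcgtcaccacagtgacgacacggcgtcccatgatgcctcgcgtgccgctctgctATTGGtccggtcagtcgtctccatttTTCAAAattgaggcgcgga
In *Mcm6*, 2 E2F matches on opposite strands overlap at 110 and 106 bases before the start, and another E2F match lies 47 bases before it, with 2 CCAAT boxes read as ATTGG. *Rrm1* has its E2F match between 2 CCAAT boxes. *Top2a*, *Cdk1*, *Cdc20*, *Ube2c* and *Kif11* have a CHR match 23, 15, 18, 29 and 19 bases before the start, each with at least 1 CCAAT box further upstream. The CHR letters were in the windows of 5 of 5 matched mitosis genes with a row for subcluster 4 and of 12 of 16 without one, and before the start they were in 4 of 5 and in 5 of 16.

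ILC2 subcluster 4 had 30 of the 36 member rows in the subcluster table. It had a row for 19 of 20 replication genes and for 6 of 25 mitosis genes, while 30.5% of the 2629 genes with a row anywhere in that table had one for this subcluster. The 5 tubulin and chromatin genes each had a row. With these 5 counted as mitosis genes, 36.7% of mitosis genes had a row, in place of 24%. Members with no row in the table stand in these counts, whereas the percentage over all genes covers only genes with a row somewhere in the table. On that denominator the counts were 19 of 19 replication and 6 of 6 mitosis genes, so what sets the groups apart is that 19 of 25 mitosis genes had no row for any subcluster, against 1 of 20 replication genes. Subcluster 4 made up 9.23% ± 0.0113 (SE of the least-squares fit) of the ILC2s. The solved sizes of all subclusters summed to 100.163%, and the SE does not cover the sampling of cells. A share at least 10 percentage points above the other ILC2s was seen for all 25 replication and mitosis genes with a row here and for 3 of the 5 tubulin and chromatin genes. It was seen for 28.8% of all genes in the table and for 757 of the 802 with a row for this subcluster, so among genes with a row it was the rule. The 20 members without a row were *Ccne2* and 19 mitosis genes, among them the cyclins *Ccna2*, *Ccnb1* and *Ccnb2*.

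**Figure D1:**
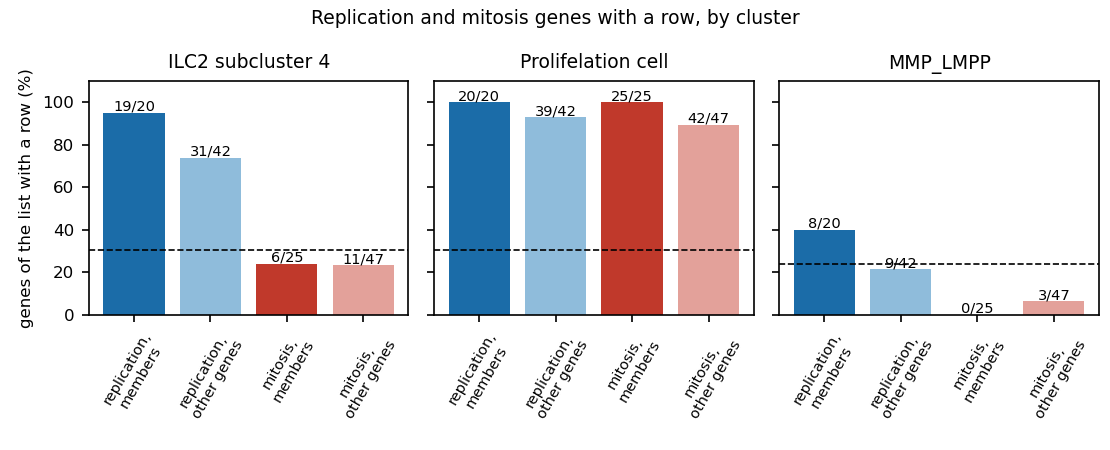
Bars give the percentage of genes in each list with a row (y axis) for ILC2 subcluster 4, the Prolifelation cell type and the MMP_LMPP type, for the 20 replication and 25 mitosis members and for 42 and 47 further genes of the same processes; the dashed line is the percentage over the genes with a row anywhere in the table (30.5%, 30.6% and 24%), whereas the bars also count genes with no row in it. In subcluster 4 the replication bars (95% and 73.8%) are higher than the mitosis bars (24% and 23.4%), and of the mitosis genes with a row for any subcluster 6 of 6 members and 11 of 15 others had a row for it; in the Prolifelation cell type the 4 bars are of like height.

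The helicase subunits *Mcm6*, *Mcm5*, *Mcm3*, *Mcm7* and *Mcm4* had the largest differences among the replication genes. *Mcm6*, a helicase subunit (chr1:128331590-128359664, GRCm38), had a value above 0 in 78.6% of subcluster 4 cells and in 17.2% of the other ILC2s. *Mcm5*, also of the ring, was in 72.5% against 11.1%, a difference of the same size (61.4 percentage points each). *Mcm3* was in 79.9% against 20.1%. *Mcm7* was in 70.1% against 13.3%, *Mcm4* in 73.5% against 17.7% and *Mcm2* in 65.4% against 12.5%, so that each of the 6 subunits was in at least 65.4% of the subcluster. *Gins2*, whose protein joins the ring in the active helicase, was in 52.3% against 5.3%. *Cdc6*, which loads the ring onto origins, was in 33.0% against 1.8%, the lowest share in other ILC2s among the 30 members with a row.

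At the fork, *Pcna*, the sliding clamp, was in 84.8% of subcluster 4 cells and 34.9% of other ILC2s, and *Pclaf*, a clamp-associated factor, was in 49.8% against 5.0%. *Lig1*, the ligase that joins lagging-strand fragments, was in 73.9% against 18.9%, and *Fen1*, the nuclease that trims them, in 51.6% against 8.6%. *Uhrf1*, which brings the maintenance DNA methyltransferase to new DNA, was in 49.9% against 4.3%. Enzymes of nucleotide supply showed the same direction. *Rrm1* and *Rrm2*, the subunits of ribonucleotide reductase, were in 59.8% against 13.4% and in 31.9% against 3.1%. *Tyms*, thymidylate synthase, was in 55.3% against 13.3%, and *Tk1*, thymidine kinase, in 35.2% against 3.4%. *Dut*, which removes dUTP, was common in other ILC2s as well, at 91.4% against 48.4%. The same held for *Slbp*, which binds the stem-loop of histone mRNAs, at 83.8% against 42.9%.

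The 6 mitosis genes with a row for subcluster 4 were *Smc2*, *Smc4*, *Top2a*, *Mki67*, *Cdk1* and *Cdca8*. *Smc2*, a condensin core subunit, was in 73.7% of subcluster 4 cells and in 23.4% of other ILC2s, and its partner *Smc4* was in 87.3% against 56.8%. *Top2a*, the topoisomerase that untangles sister DNA, was in 71.5% against 26.2%. *Mki67*, the gene of the proliferation marker Ki-67, was in 54.7% against 15.0%. *Cdk1*, the mitotic kinase, was in 34.0% against 3.4%, and *Cdca8* (borealin), of the chromosomal passenger complex, in 34.6% against 4.5%. The remaining subunits of that complex on the list, *Birc5* and *Aurkb*, had no row, and neither did the kinetochore genes *Cenpa*, *Cenpe* and *Cenpf*, the checkpoint genes *Bub1* and *Bub1b*, the kinases *Aurka* and *Plk1*, the spindle genes *Tpx2*, *Nusap1*, *Kif11* and *Kif23*, *Cdca3*, or *Cdc20* and *Ube2c*, which act in the destruction of cyclins.

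*Stmn1*, which destabilizes microtubules (chr4:134468320-134473843, GRCm38), had the largest difference in share of all 802 genes with a row for subcluster 4, at 77.2% against 9.8%. The tubulin gene *Tuba1b* was in 87.0% against 34.4%, and *Tubb5* in 95.8% against 70.1%. *H2afz*, a variant histone, and *Hmgb2*, a DNA-bending protein, were near the top of the scale on both sides, at 98.8% against 88.9% and at 98.5% against 92.6%. *Tuba1b*, *Tubb5*, *Hmgb2* and *H2afz* belong to families with closely similar members or copies, between which reads may be split. This was not examined here, and their shares are uncertain to that extent.

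**Figure D2:**
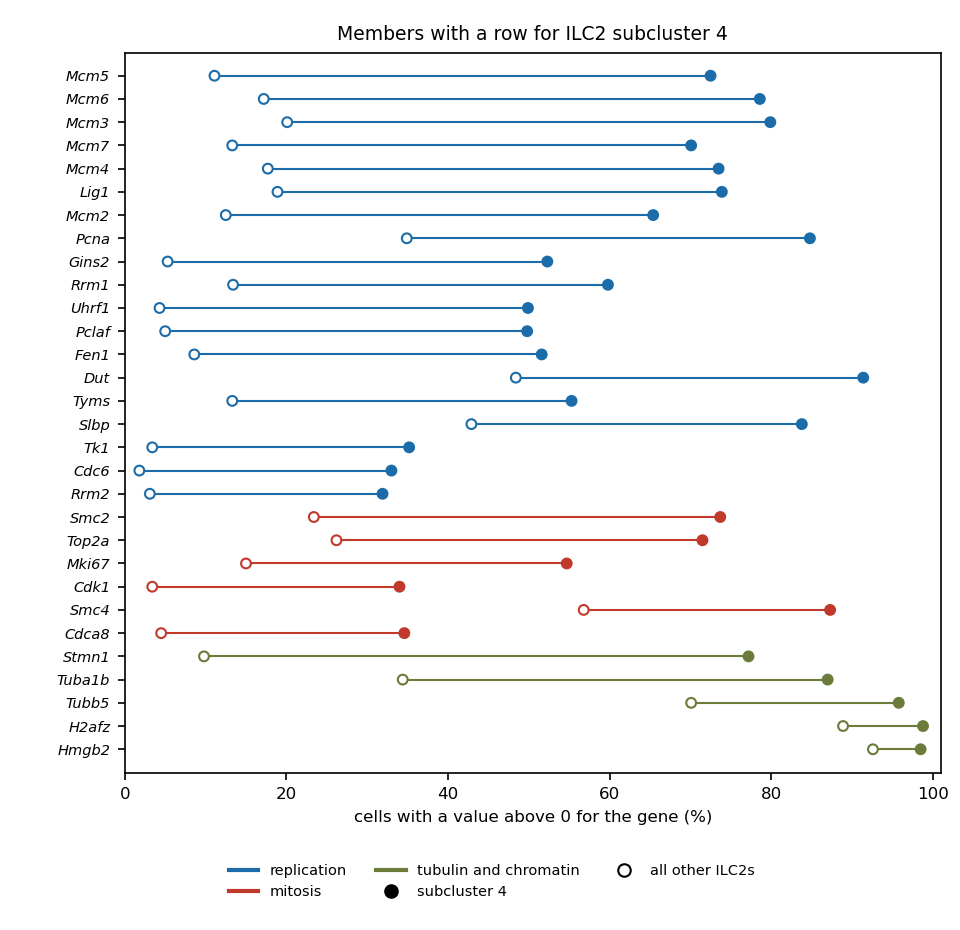
Share of positive cells (value above 0; x axis, %) for the 30 members with a row for ILC2 subcluster 4, in subcluster 4 (filled points) and in all other ILC2s (open points), coloured by group. The longest line belongs to *Stmn1* (77.2% against 9.8%), and *Hmgb2* (98.5% against 92.6%) has the shortest.

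The median difference in share was 46.4 percentage points over the 19 replication genes with a row and 35.15 over the 6 mitosis genes, beside 34.1 over all 802 genes with a row for subcluster 4. The corresponding median ratios of the shares were 5.23, 3.39 and 1.95. Of the 10 genes with the largest differences, 7 were replication members and 1 was *Stmn1*, and the remaining 2 were *Hmgn2* and *Cdca7*. Of the first 50 genes, 11 were replication members, 1 was a mitosis member (*Smc2*) and 2 were *Stmn1* and *Tuba1b*. These medians cover only genes that entered the table through a higher level there and are no support for a difference.

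The solved size of the subcluster allows the cells to be counted the other way round. Of all ILC2s with *Cdc6*, 65.1% lay in subcluster 4 (64.4% to 65.8% from the rounding of the shares). The percentage was 54.1% for *Uhrf1*, 51.3% for *Tk1*, 51.1% for *Rrm2*, 50.4% for *Cdk1*, and 50.3% for *Pclaf*, so a majority of the ILC2s with *Cdc6* or with any of these 5 genes was in a subcluster of 9.23% of the cells. For *Gins2* it was 50.1% (49.8% to 50.4%). It was 44.5% for *Stmn1*, 43.9% for *Cdca8* and 39.9% for *Mcm5*. The rest of the helicase ring ranged from 28.8% (*Mcm3*) to 34.9% (*Mcm7*), *Mki67* was at 27.1% and *Top2a* at 21.7%, so most ILC2s above 0 for these genes were outside subcluster 4. The tables give no background from free RNA, which would add such cells, and its part was not tested. *Pcna* was at 19.8%, *Slbp* at 16.6%, *Dut* at 16.1% and *Smc4* at 13.5%. *H2afz* (10.2%) and *Hmgb2* (9.76%) lay close to the size of the subcluster itself. The medians were 34.7% for replication genes, 25.7% for mitosis genes, 12.2% for tubulin and chromatin genes, and 16.6% for all genes with a row.

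**Figure D3:**
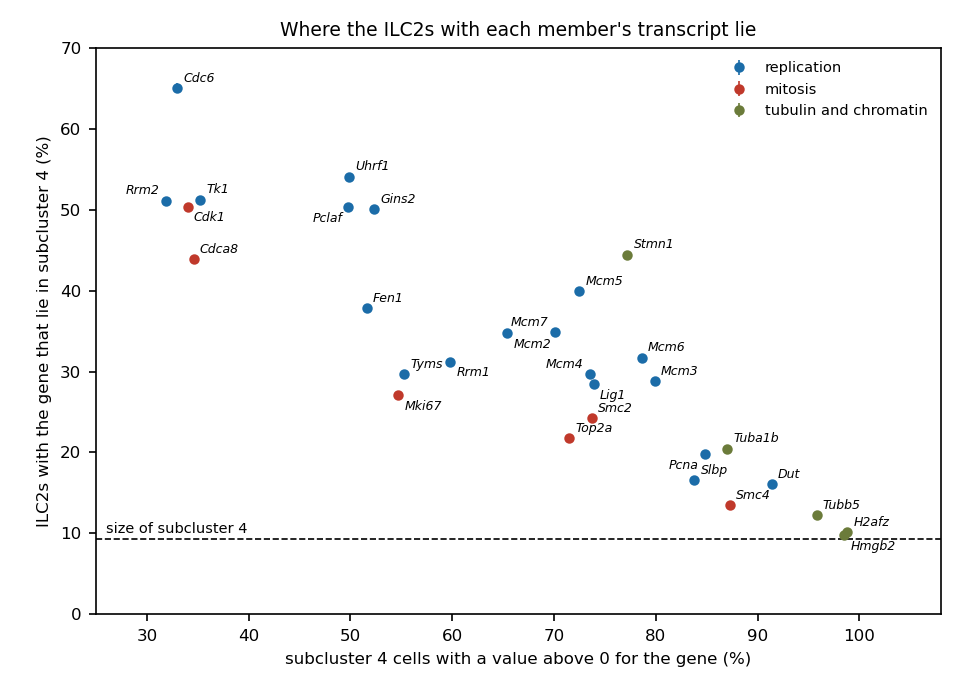
For each of the 30 members with a row for ILC2 subcluster 4, the x axis gives the share of its cells with the gene (%) and the y axis the percentage of all ILC2s with the gene that lie in it; error bars from rounding are smaller than most points, and the dashed line is the size of the subcluster (9.23%). *Cdc6* stands highest (65.1%) at a low share within the subcluster (33.0%), and *H2afz* and *Hmgb2* lie near the line.

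Some of the values above 0 must have been in the same cells, whether or not each stands for a transcript made by that cell. From the shares alone, at least 58.5% of subcluster 4 cells had both *Mcm3* and *Mcm6*, at least 51.4% had both *Mcm3* and *Top2a*, and at least 34.6% had both *Mcm3* and *Mki67*. For *Mki67* with *Top2a* the lower limit was 26.2%, and for *Mcm3* with *Cdk1* it was 13.9%. How many more cells shared these values cannot be read from pooled shares, and the part of free RNA in them was not tested.

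Outside subcluster 4 the ILC2 subclusters had few member rows. Subclusters 0, 3, 5 and 9 had 0 of 50 members, where 11.4%, 9.01%, 38% and 7.57% of all genes had a row. *Hmgb2* alone had rows for subclusters 1 (99.3% of cells against 91.6%; 13.8% of all genes had a row there) and 2 (98.9% against 91.8%; 4.98% of all genes). Subcluster 6 had rows for *Hmgb2* (99.0% against 92.9%) and *Top2a* (49.0% against 29.6%), where 7.23% of all genes had one. *Top2a* also had a row for subcluster 8 (49.4% against 30.2%; 9.62% of all genes), and *H2afz* for subcluster 7 (99.5% against 89.7%; 10.3% of all genes). *Top2a* was thus the only replication or mitosis member with a row in more than 1 subcluster. Subclusters 6, 7 and 8 were small, at 3.72%, 1.42% and 0.668% of the ILC2s, and 0 of 20 replication genes had a row for them.

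Of 42 further replication genes, 33 of them in the table, 31 had a row for subcluster 4. Of 47 further mitosis genes, 15 of them in the table, 11 did, beside 30.5% of all genes in the table. The largest differences in the replication list were those of *Tipin*, a fork protection factor (71.4% against 19.9%), *Nasp*, a histone chaperone (81.2% against 31.2%), *Hells*, a chromatin remodeller (70.1% against 20.2%), and *Dnmt1*, the maintenance DNA methyltransferase (84.1% against 35.2%). In the mitosis list they were those of *Cks1b* (63.4% against 12.6%) and *Cks2* (68.1% against 22%), which bind cyclin-dependent kinases, *Anp32e*, a histone chaperone (87.7% against 50.1%), and *Cenpw*, a kinetochore gene (44.9% against 10.5%). Of 22 genes of cell cycle entry and exit, 12 of them in the table, 3 had a row. They were *Cdk4* (88.7% against 42.0%) and *Cdk6* (82.9% against 49.6%), the kinases of D-type cyclins, and *Rbl1*, a relative of the retinoblastoma gene (39.7% against 8.6%). Of 13 further histone genes, 4 of them in the table, *H2afx* (59.1% against 23.0%) alone had a row. Counted over the genes in the table, the entry and exit list and the histone list were near the 30.5% of all genes.

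Markers of other cells were examined in the same rows. For subcluster 4, 3 of 10 NK cell and ILC1 markers had a row (30%, beside 30.5% of all genes, and 3 of the 3 with a row for any subcluster), namely *Ccl5* (62.6% against 41.8%), *Nkg7* (30.5% against 11.7%) and *Gzma* (25.8% against 9.7%), while *Ncr1*, *Klrb1c*, *Klrd1*, *Eomes*, *Gzmb*, *Prf1* and *Tbx21* had none. Of 13 ILC2 markers, *Il13* had one (62.1% against 34.4%). T cell, ILC3, B cell, myeloid, basophil, progenitor and endothelial markers had 0 rows there. The part of NK cell and ILC1 transcripts in the members' shares was not tested.

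In the cell type table all 50 members had a row for the type named Prolifelation cell in the deposited table (spelled as there), where 30.6% of the 1679 genes with a row anywhere had one. This type made up 6.23% ± 0.00695 (SE of the fit) of the sorted cells, and the solved sizes of all types summed to 100.052%. All 45 replication and mitosis genes, and 3 of the 5 tubulin and chromatin genes, were at least 10 percentage points above the other cells, as were 28.8% of all genes in the table and 484 of the 513 with a row for this type. The cells had been clustered on their expression, so these rows describe the type and do not test its name. The ILC2 type had 0 of 50 member rows (8.1% of all genes had one), and ILC2_2, the smaller type, had 1 (11.9% of all genes had one), for *Mcm7* (56.7% against 41.0%).

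Mitosis genes, most of them without a row in the ILC2 subclusters, were prominent in this type. *Birc5* (survivin), of the chromosomal passenger complex (chr11:117849251-117855743, GRCm38), was in 89.5% of Prolifelation cells and in 17.7% of the other sorted cells. *Mki67* was in 94.0% against 25.8%, and *Cdca8* in 90.6% against 25.7%. *Aurkb*, the kinase of the passenger complex, was in 72.9% against 17.2%. The partners of Cdk1 had low shares outside the type. *Ccnb2* was in 79.8% against 12.8%, *Ccna2* in 74.9% against 13.6%, *Ccnb1* in 61.5% against 13.3%, and *Cdk1* itself in 82.7% against 22%. For the destruction of cyclins, *Ube2c*, a ubiquitin-conjugating enzyme, was in 79.5% against 15.6%, and *Cdc20*, the activator of the ligase, in 73.3% against 27.3%. *Cdca3*, a trigger of mitotic entry, was in 78.6% against 19%.

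On the spindle, *Tpx2*, which activates Aurora A, was in 83.6% against 21.7%, *Nusap1*, which bundles microtubules, in 77.7% against 16.2%, and *Kif11*, the motor that pushes the poles apart, in 76.4% against 15.9%. *Kif23*, a motor of the central spindle, was more widespread, at 81.8% against 40.8%. At the kinetochore, *Cenpe*, a motor, was in 82.1% against 20.3%, and *Cenpf* in 78.4% against 22.2%. The checkpoint kinase *Bub1* was in 68.5% against 9.3%, the lowest share in other cells of any member in this table, and *Bub1b* was in 73.2% against 14.9%. *Plk1* (60% against 21.3%) and *Aurka* (60% against 33.8%), kinases of the spindle poles, had the lowest shares of the mitosis genes inside the type. The chromosome genes were *Top2a*, at 91.3% against 32.1%, *Smc2*, at 91.6% against 41.9%, *Smc4*, at 95.9% against 71.0%, and *Cenpa*, the histone variant of the centromere, at 83.4% against 53.1%.

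Replication genes had a median share of 83.2% inside the type and 38.35% outside it, beside 79.5% and 21.3% for mitosis genes, with overlapping ranges. *Pclaf* had the largest difference of all 513 genes with a row for the type, at 95.0% against 21.1%. *Uhrf1* was in 81.8% against 21.8%, *Rrm2* in 79.3% against 22% and *Tyms* in 80.7% against 25.1%. *Rrm1* (86.7% against 37.3%), *Tk1* (73.6% against 24.5%) and *Cdc6* (59.5% against 12.3%) followed. The helicase subunits were in 77.2% (*Mcm2*) to 88.4% (*Mcm3*) of the type and in 38.2% (*Mcm7*) to 42.1% (*Mcm4*) of other cells. *Ccne2*, the cyclin of S phase entry and the only replication gene with no row among the ILC2 subclusters, was in 68.6% against 23.3%. *Gins2* was in 69.8% against 29.5%, *Lig1* in 83.8% against 43.0% and *Fen1* in 76.0% against 41.1%. *Dut* (94.2% against 57.8%), *Pcna* (97.1% against 67.3%) and *Slbp* (94.4% against 66.2%) were in most cells on both sides. Among tubulin and chromatin genes, *Stmn1* was in 98.5% against 40.1%, *Tuba1b* in 94.2% against 75.2%, *Tubb5* in 98.3% against 81.1%, *Hmgb2* in 100% against 93.8% and *H2afz* in 99.9% against 94.6%.

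**Figure D4:**
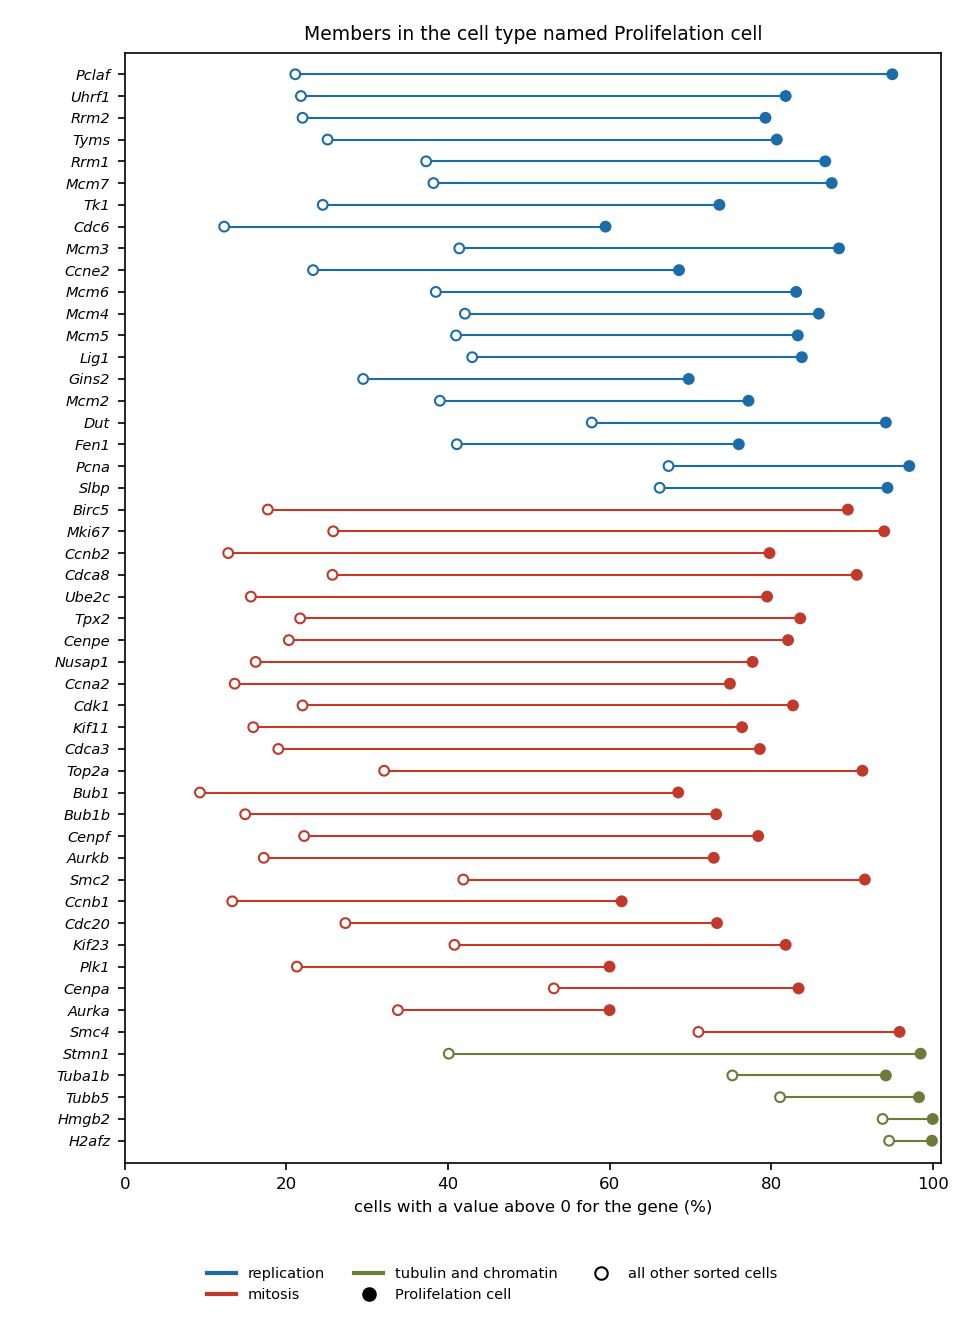
Share of positive cells (value above 0; x axis, %) for all 50 members in the Prolifelation cell type (filled points) and in all other sorted cells (open points), coloured by group and ordered by difference within each group. *Pclaf* (95.0% against 21.1%) has the longest line, and the open points of the mitosis genes have a median of 21.3%.

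In the Prolifelation cell type the median difference in share was 59.2 percentage points for mitosis genes, 44.95 for replication genes and 17.2 for tubulin and chromatin genes, beside 36 for all genes with a row. The median ratios were 3.85 for mitosis, 2.22 for replication and 1.83 for all genes. Of the 10 genes with the largest differences, 5 were mitosis members and 1 was a replication member, and of the first 50, 17 were mitosis and 4 replication members. Of all sorted cells above 0 for *Bub1*, 32.9% lay in this type, and the percentage was 29.3% for *Ccnb2*, 25.3% for *Ube2c*, 25.2% for *Birc5*, 24.3% for *Cdc6* and 23.0% for *Pclaf*. The medians were 20.4% for mitosis genes, 12.9% for replication genes, 7.46% for tubulin and chromatin genes and 10.8% for all genes with a row. For every member most of the cells above 0 were thus outside the type, on the scale of a table in which a value above 0 may not mean a detected transcript.

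The 6 mitosis genes with a row for ILC2 subcluster 4 had a median share of 91.45% (82.7% to 95.9%) in Prolifelation cells and of 28.95% (22% to 71%) in other cells. The 19 without such a row had 77.7% (60% to 89.5%) and 17.7% (9.3% to 53.1%). The ranges overlap on both sides, and the part of the 25% limit in the missing rows was not tested. The Prolifelation cell type stands beside ILC2 and not within it, cells with markers of other lineages were removed before the ILC2s were clustered again, and the tables do not give, cell by cell, which types entered the ILC2 subclusters. Its part in the missing mitosis rows was not tested either.

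The shares of the tables were not on the same scale. For 116 genes with a row for the ILC2 type and rows in the subcluster table, the share was above that in all ILC2s of the subcluster table for 112, with medians of 75.15% and 43.26%. All 30 members with a row in both main clusters had a higher share in other cells by the cell type table, with medians of 39.55% and 14.2%. Members are therefore compared within a table only, and the medians of the groups above are set side by side without a test.

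Of 42 further replication genes 39 had a row for the Prolifelation cell type, and of 47 further mitosis genes 42 did. In each list these were all the genes in the table. *Cks1b* (93.9% against 26.4%), *Spc24* (88.8% against 25.1%), *Kif15* (78.3% against 16.0%) and *Cenpm* (80.9% against 19.5%) led the mitosis list. The nuclease *Exo1* (67.6% against 13.7%), the helicase factor *Cdc45* (69.4% against 17.2%) and the transcription factor *E2f1* (72.3% against 20.7%) were among the largest differences of the replication list. Of the entry and exit genes 7 of 22 (14 of them in the table) had a row, led by *E2f8*, a repressor of E2F targets (57.1% against 9.9%), and 4 of 13 histone genes (5 of them in the table) did, beside 30.6% of all genes. Of the NK cell and ILC1 markers 3 of 10 had a row, near that share, with *Gzma* in 90.4% against 37.5%, *Gzmb* in 94.2% against 50.9% and *Eomes* in 92.2% against 63.0%, while 0 of 13 ILC2 and 0 of 12 T cell markers did. The part of these cells in the members' shares was not tested.

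Replication genes also had rows for MMP_LMPP, a type of 0.387% of the cells, without any mitosis member. Of 20 replication genes 8 had a row, against 0 of 25 mitosis genes and 24% of all genes. *Mcm4* was in 94.3% of these cells and in 44.7% of all others, *Mcm6* in 86.2% against 41.1%, and *Mcm2* in 84.6% against 41.2%. *Mcm7* (70.7% against 41.2%) and *Mcm3* (64.2% against 44.3%) had smaller differences, and *Mcm5* had no row. *Gins2* was in 71.5% against 31.8%, *Rrm1* in 76.4% against 40.2% and *Dut* in 82.1% against 60%, whereas *Rrm2*, *Tyms*, *Tk1*, *Pclaf* and *Uhrf1* had no row. *Stmn1* was in 91.9% against 43.5%. Among further replication genes 9 of 42 (21.4%) had a row, or 9 of the 39 in the table, near the 24% of all genes. They were led by *E2f1* (87.8% against 23.7%), *Pold1*, a polymerase subunit (95.9% against 40.1%), and *Pola2*, of the priming polymerase (84.6% against 36.2%). Of 47 further mitosis genes, 42 of them in the table, 3 had a row. *Cdk6* (92.7% against 55.4%) and *Myc* (82.9% against 45.9%) led the 7 of 22 entry and exit genes (14 of them in the table) with a row. Progenitor markers had 3 of 5 rows, with *Cd34* in 75.6% against 17.4%, *Sox4* in 97.6% against 50% and *Kit* in 87.0% against 59.3%, and 3 of 6 B cell markers had a row, with *Cd79a* in 76.4% against 27.8%.

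In the remaining types member rows were scattered and mostly concerned genes that were common everywhere. *Smc4* had rows for gdT_Naive (95.5% against 71.1%), CD8_Naive (89.7% against 72.1%) and Treg (84.9% against 72.3%). *Slbp* had rows for ILC1 (75.0% against 67.6%), NK (74.6% against 67.7%) and gdT_TypeI (68.4% against 67.9%). *H2afz* had rows for NK (99.7% against 94.8%) and CD8_Effector (98.5% against 95.0%), and *Tubb5* for CD8_Naive (90.5% against 82.0%) and gdT_Naive (82.9% against 82.1%). *Stmn1* had a row for Endothelium cell (92.8% against 43.3%). *Cenpa* was the most scattered member. Its share was above that of other cells for Plasma cell (67.6% against 55.0%) and Treg (60.1% against 54.9%), and below it for gdT_Naive (50.2% against 55.3%), CD8_Naive (46.0% against 55.3%) and CD4 (42.5% against 55.4%), although a row stands for a higher average level. CD8_Naive and gdT_Naive thus had 3 member rows each, beside 11.8% and 8.87% of all genes, and NK and Treg had 2 each, beside 11.7% and 8.93%.

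Over both tables, the members had 76 rows for cell types and 36 for subclusters. Of the 50 members, 36 had a row for the Prolifelation cell type alone, among them 23 of 25 mitosis genes (all but *Smc4* and *Cenpa*) and 11 of 20 replication genes. Of the 30 members in the subcluster table, 27 had a row for subcluster 4 alone, including all 19 replication genes. The 50 genes are protein-coding and lie on 17 chromosomes of GRCm38 with at most 8 on the same chromosome.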

How the data were processed

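Droplet-based single-cell RNA libraries of sorted ILC2s came from 4 groups, taken from the labels, with 1 library each. The authors aligned reads with Cell Ranger to mm10 (per the labels), removed doublets and dead cells by flow cytometry, excluded cells with fewer than 500 detected genes, scaled each cell to 10000, log transformed the values and clustered in Seurat. The deposited marker tables give, as a fraction with 3 decimals, the share of positive cells inside a cluster and in all other cells, pooled over libraries, with no SD. Their log fold changes and p-values, the authors' own comparisons, were not used. The Seurat assay, and so whether the cell type table was batch-integrated, is not given in the sources used here.

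Member rows were counted by cluster beside all genes of the table (Python 3.11.15, pandas 2.3.3, numpy 2.4.6). Cluster sizes were solved by least squares over genes with rows for at least 2 clusters, since the share outside plus the size times the difference of the shares is the share in all cells, and this was tested on simulated data. Promoters were RefSeq windows matched by symbol, and positions came from GENCODE. The naming rule asked for the 10 largest and 5 smallest differences of each group in the main clusters, every other member row and the 4 largest of each further list, of which 1 is not reported here. The remaining members and single markers were added after their values were seen. Members and lists were chosen with earlier results of these data known. No test was made, the tables give no depth, and the tables held 0 other columns of per-sample values.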

Additional observations from a re-analysis of the deposited data

How the results depend on the processing

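Of 71 values recomputed, 53 kept within their limits and 18 moved, 8 of them because the unit changed from percentage points to a log2 ratio. With rows counted only at 10 or more percentage points above the other cells, 60% of the tubulin and chromatin genes counted in ILC2 subcluster 4 and 60% in the Prolifelation cell type. With the 5 tubulin and chromatin genes taken as mitosis genes, 36.7% of mitosis genes had a row for subcluster 4 and 3.33% for MMP_LMPP. The 30.5% of all genes covers only genes in the table and gives these percentages no place above or below it. The further lists gave 21.4% (replication) and 6.38% (mitosis) for MMP_LMPP, so the replication percentage was lower than the 40% of the members. Of the 42 further replication genes 39 were in the table, and 9 of these had a row, near the 24% of all genes. On the log2 scale of the ratio of shares, the medians for replication, mitosis, tubulin and chromatin, and all genes were 2.39, 1.76, 0.45 and 0.97 in subcluster 4 and 1.15, 1.95, 0.28 and 0.87 in the Prolifelation cell type, in the same order as the differences. With sizes solved from genes with rows for at least 3 clusters, the median percentage of cells inside subcluster 4 was 12.2% (12.1762 before rounding) for tubulin and chromatin genes and 16.5% for all genes, and the largest shift over 24 such values was 0.0596 percentage points. With only the bases before the start, 35.3% of replication promoters held E2F letters and 42.9% of mitosis promoters held CHR letters. The causes were not tested.

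No paired analysis was possible because there is 1 library per group and the tables give no value per library. For the same reason no replicate could be left out. Libraries of both treatments and both organs enter every share in proportions that the tables do not give, and their part in any value could not be separated. The tables hold no depth or cell numbers, cell numbers from elsewhere were not used here, and no counting error was computed; values of the smallest types and subclusters are the least certain. Genes rarer than 25% on both sides are missing from the tables.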
